A study of Mus musculus with 12 samples.

Results

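The 51 genes described here encode the actin filament and adhesion machinery of macrophages, and were chosen as a named list by gene symbol. All 51 were found among the 25230 genes of the deposited table. All of them also reached at least 1 TPM (transcript abundance corrected for gene length and for sequencing depth) in 3 or more libraries, as did 11283 genes in all. They were placed in role groups, among them 2 actin genes, 8 of the Arp2/3 complex, 5 of the WAVE complex, 3 of WASP and its partners and 7 of monomer binding and turnover. Further groups were 5 of capping and severing, 4 of elongation, 5 of crosslinking and scaffolding, 3 of focal adhesion, 4 myosins and tropomyosins and 3 membrane linkers. The RNA came from mouse macrophages grown out of bone marrow with M-CSF (BMDMs) and was selected for poly(A) tails. The study has 12 libraries in 4 groups of 3: Piezo1 KO with Candida albicans, WT with Candida albicans, Piezo1 KO with PBS and WT with PBS. Piezo1 is a mechanically gated cation channel, and the series asks whether it takes part in the recognition of this fungus. Knockout is the word of the labels, which name neither the allele nor any Cre, and neither a fungal dose nor an exposure time is on record there. The knockout PBS libraries carry DMSO in their titles and PBS in their treatment label, and were grouped as PBS. Nothing states that replicates were separate animals or cultures, so the p-values measure the spread between these libraries, which may be technical.

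Actin filaments grow from monomers held in reserve by small proteins such as thymosin and profilin. The Arp2/3 complex starts new branches when it is switched on by WASP or, in macrophage lamellipodia, by the WAVE complex, while formins and Ena/VASP proteins extend filament ends and capping proteins stop them. Crosslinkers bundle filaments, and talin and vinculin tie them to integrins, so that the network carries force during phagocytosis and crawling. In bulk RNA a lower level can come from fewer cells of a kind or from less RNA per cell, and these cannot be told apart.

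Reads in genes lay between 16400119 and 25741091 per library. Piezo1 was at 64.3 to 65.7 TPM in knockout C. albicans libraries and 132 to 147 in wild-type C. albicans, and at 62.4 to 67.5 in knockout PBS and 130.4 to 139.6 in wild-type PBS. The genotypes thus did not overlap, although Piezo1 reads remained in every knockout library. All 8 macrophage markers passed the filter, but their summed level, most of it from Lyz2, was 15570 to 15710 TPM in knockout C. albicans and 21430 to 22560 in wild-type C. albicans. With PBS it was 15290 to 15530 TPM in the knockout and 25740 to 26290 in wild type, and its part in the results was not tested. Summed markers of neutrophils were at 2.11 to 8.07 TPM, with 1 of 8 passing the filter, and no fibroblast, dendritic cell or erythroid marker passed it. Of T cell markers Cd4 passed and of B cell markers Cd79a, and the summed endothelial markers, of which 3 of 4 passed, were at 29.1 to 46.9 TPM. Wild-type C. albicans replicate 1 stood apart, with chi-square values, divided by their degrees of freedom, of 16.2 and 15.3 when its reads were compared with those of replicates 2 and 3. Every other pair of replicates lay between 1.49 and 4.60. It was below both of its replicates for 27 of the 51 genes and above both for 16, so counts are also given without it.

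The 51 genes were abundant, with a median level over the 12 libraries of 273 TPM against 19.4 TPM over all tested genes. Tmsb4x, which encodes the monomer-sequestering thymosin beta-4, was the highest, with a mean of 11826 TPM, followed by Actb at 3074 and Actg1 at 2271. The lowest was Wasl, the gene of N-WASP, with 356 to 594 reads per library. Together the 51 genes held 3.38% to 4.04% of all TPM. The median standard error of the knockout effect with C. albicans was 0.04 for these genes and 0.07 for all tested genes on the log2 scale. A given fold change therefore passed the test more readily here than in the table at large.

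In wild-type macrophages C. albicans raised 27 of the 51 genes and lowered 10 at an adjusted p under 0.05, where 16.1% of all tested genes were higher and 28.3% lower. In the knockout it raised 5 and lowered 0, where 3.94% of all tested genes were higher and 3.14% lower. Between genotypes with C. albicans, 4 of the 51 were higher in the knockout and 26 lower, against 12.4% and 27.5% of all tested genes. With PBS 6 were higher in the knockout and 23 lower, against 6.14% and 26.1%. The median log2 fold change of the 51 genes in the knockout, relative to wild type, was -0.14 with C. albicans and -0.10 with PBS, beside -0.05 and -0.08 over all tested genes. For the response to C. albicans the median was 0.06 in the knockout and 0.13 in wild type, beside -0.04 and -0.07 over all tested genes. Lower with both treatments were 18 genes, and 5 were called in no comparison. No share over all tested genes stands beside these counts, so they show nothing particular to the list. The 2 effects come from separate libraries, and each also shares libraries with the responses.

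**Figure D1:**
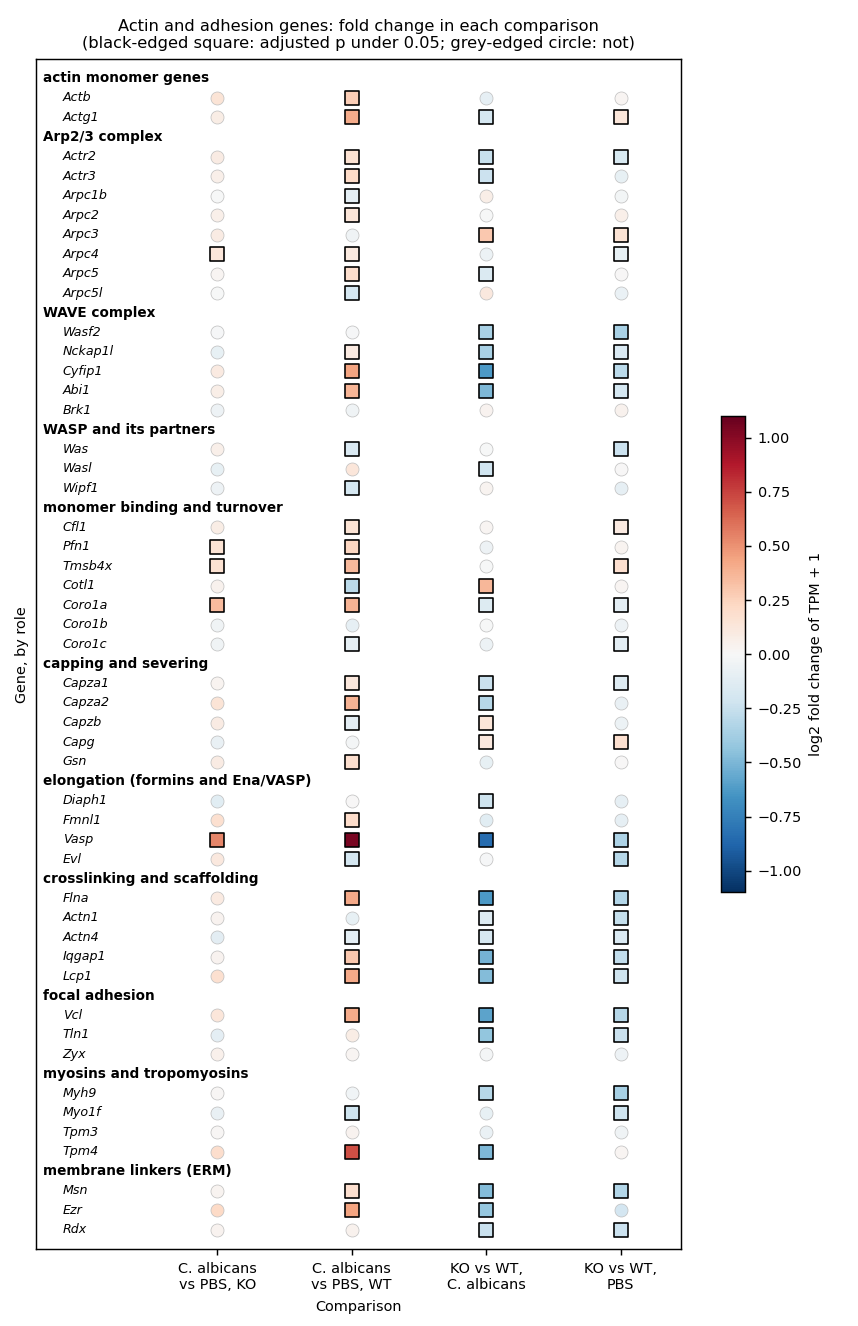
Log2 fold change (colour) of the genes of the role groups described, by role down the page, in 4 comparisons across it; black-edged squares passed at an adjusted p under 0.05 and grey-edged circles did not. The column of the knockout response holds 5 squares, and that of the wild-type response many more, while the crosslinking rows are blue in both columns of knockout against wild type.

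How the counts split by direction depended on how libraries were scaled. With median-ratio factors, the scaling that DESeq2 uses, the knockout effect with PBS had 10 genes higher and 12 lower (14.2% and 14.1% of all tested genes), and the wild-type response 32 higher and 3 lower (22.8% and 18.3%). Calls that ended with median-ratio factors were those of Actr2, Arpc4, Nckap1l, Cyfip1, Abi1, Coro1a, Coro1c, Capza1, Vasp, Actn4 and Lcp1 in the knockout with PBS, all lower. In the wild-type response they were the falls of Arpc1b, Arpc5l, Was, Wipf1, Coro1c, Capzb and Actn4, and in the knockout with C. albicans those of Wasl, Coro1a and Actn1. For the knockout effect with C. albicans, upper-quartile factors gave 8 higher and 22 lower (21.9% and 19.9%). Without wild-type C. albicans replicate 1 that effect had 5 higher and 30 lower (15.5% and 26.1%). The wild-type response then kept its counts of 27 and 10 (16.7% and 31.3%), and the knockout response had 16 higher and 2 lower (5.88% and 7.30%), although its own libraries are the same in both fits. That response had 2 or 3 genes higher without any single one of knockout PBS replicates 1 and 2 and knockout C. albicans replicates 1, 2 and 3. No share over all tested genes stands beside these last counts.

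The promoters of 44 of the 51 genes could be read from RefSeq on GRCm38.p6, as windows of 250 bases before to 50 after a start. They are shown because actin and vinculin genes are textbook targets of serum response factor (SRF), whose cofactors are held by actin monomers. SRF binds the CArG box, a run of A or T letters between CC and GG of 10 letters in all, which reads as the same pattern on both strands. Windows of 3 of the 44 genes (6.82%) held a match, against 1.44% of 8977 tested genes and 1.63% of all 32851 windows. All 3 were among the 24 matched genes that rose in the wild-type response, and 0 of the other 20 held one. That split comes from calls in these same data and rests on 3 matches, so it is no test of a link. A match is only those letters in this window and does not show binding. Actg1 and Vcl are of the gene kinds just named as known targets, so these shares are no test of the list. Whether SRF took part in any response was not tested. The stretches of 60 bases around each match, 5′ to 3′ on the gene's strand with the CArG box in capitals, are these.
Actg1, minus strand, chr11:120348551-120348610: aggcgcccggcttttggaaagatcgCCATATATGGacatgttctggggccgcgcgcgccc
Arpc4, plus strand, chr6:113377863-113377922: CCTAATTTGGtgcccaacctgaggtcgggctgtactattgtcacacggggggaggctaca
Vcl, plus strand, chr14:20929148-20929207: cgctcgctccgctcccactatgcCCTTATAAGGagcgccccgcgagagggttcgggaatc
Distances were counted to the start on which each promoter window is built. The last base of the Actg1 box lay 81 bases before it, that of the Vcl box 218 before and that of the Arpc4 box 241 before. For Vcl that start is not the RefSeq gene start, which lies at 20929383, nearer to the box.

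Of the actin genes, which encode the nearly identical beta and gamma cytoplasmic actins, both rose in wild type and neither passed in the knockout. Actb (chromosome 5, 142903115 to 142907976 in GRCm38) had 3230, 3185 and 3129 TPM in knockout C. albicans, 2943, 3688 and 3637 in wild-type C. albicans, 2864, 2878 and 2858 in knockout PBS and 2833, 2809 and 2830 in wild-type PBS. Both C. albicans groups lay above both PBS groups, but the 3 knockout C. albicans libraries fell inside the wide range of wild-type C. albicans, whose replicate 1 was the lowest of the treated libraries. The response of Actb was 0.15 (SE 0.06, adjusted p = 0.167) in the knockout and 0.27 (SE 0.06, adjusted p = 0.00383) in wild type. Without wild-type C. albicans replicate 1 the Actb response in the knockout passed as well, at 0.15 (adjusted p = 4.53e-05).

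Actg1 (chromosome 11, 120345687 to 120348495) had 2249, 2360 and 2291 TPM in knockout C. albicans, 2539, 2682 and 2663 in wild-type C. albicans, 2192, 2136 and 2192 in knockout PBS and 1964, 1982 and 1999 in wild-type PBS. Its knockout libraries were all below wild type with C. albicans and all above wild type with PBS, with no overlap in either case. The knockout effect was -0.19 (SE 0.03, adjusted p = 1.15e-04) with C. albicans and 0.13 (SE 0.03, adjusted p = 0.00247) with PBS, so the sign turned with the treatment. In the response Actg1 had 0.08 (SE 0.03, adjusted p = 0.0872) in the knockout and 0.41 (SE 0.03, adjusted p = 1.31e-07) in wild type. These directions were the same with every scaling run. The sources used here do not say how reads shared by Actb, Actg1 and their pseudogenes were assigned, so the split between the 2 genes is uncertain.

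In the Arp2/3 complex, the branching nucleator, subunits moved in different directions. With C. albicans 1 of 8 was higher in the knockout and 3 lower, with a median of -0.03, and with PBS 1 was higher and 2 lower. Of all tested genes 12.4% were higher and 27.5% lower with C. albicans, and 6.14% and 26.1% with PBS. Among the lower, Arpc4 was above 0 with PBS under median-ratio factors, at 0.0053. The response raised 1 in the knockout, where 3.94% of all tested genes rose. In wild type it raised 5 and lowered 2, against 16.1% and 28.3% of all tested genes. The actin-related core subunits Actr2 and Actr3 fell in the knockout with C. albicans by 0.25 (SE 0.04, adjusted p = 4.23e-04) and 0.24 (SE 0.03, adjusted p = 8.06e-05), and Arpc5 by 0.16 (SE 0.03, adjusted p = 9.13e-04). Arpc3, a small subunit, went the other way.

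Arpc3 (chromosome 5, 122391878 to 122406181) had 979.7, 939.8 and 1021 TPM in knockout C. albicans, 828, 777 and 789 in wild-type C. albicans, 895, 936 and 922 in knockout PBS and 816, 828 and 827 in wild-type PBS. Every knockout library was above every wild-type library of the same treatment. Between genotypes the value was 0.30 (SE 0.03, adjusted p = 2.47e-05) with C. albicans and 0.16 (SE 0.03, adjusted p = 0.0038) with PBS, while the response passed in neither genotype. The call with PBS ended with a trend in gene length removed. Arpc1b, the most abundant subunit gene and the form known from blood cells, had 1190, 1218 and 1213 TPM in knockout C. albicans, 1105, 1173 and 1165 in wild-type C. albicans, 1214, 1206 and 1213 in knockout PBS and 1194, 1216 and 1309 in wild-type PBS. With C. albicans its knockout libraries lay just above those of wild type, and with PBS they overlapped. Its knockout effect did not pass, at 0.07 (adjusted p = 0.11) and -0.03 (adjusted p = 0.509), and it fell in the wild-type response by 0.11 (SE 0.03, adjusted p = 0.0193). That fall became -0.03 (adjusted p = 0.589) with median-ratio factors.

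Of the other subunit genes, Arpc2 rose in the wild-type response by 0.14 and Arpc4 by 0.10, and Arpc4 rose in the knockout response too, by 0.14. Arpc5l, the alternative form of Arpc5, was the lowest in level, at 63.6 ± 0.678 TPM in knockout C. albicans, 58.5 ± 1.71 in wild-type C. albicans, 63.8 ± 3.25 in knockout PBS and 67.0 ± 4.13 in wild-type PBS (SD, n = 3 each). It fell in wild type by 0.19, which became -0.11 (adjusted p = 0.0919) with median-ratio factors. The summed level of the 8 genes was 4860 ± 58.7 TPM in knockout C. albicans and 4865 ± 65.2 in wild-type C. albicans, and 4684 ± 24.0 in knockout PBS and 4675 ± 22.4 in wild-type PBS (SD, n = 3 each). These sums lay within their spread of each other between genotypes, while some single subunits, such as Actr2 and Arpc3, did not. Arpc4 overlaps Ttll3, and since the strand setting of the counting is not given, reads of the overlap cannot be assigned.

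In the WAVE complex, the activator of Arp2/3 in lamellipodia, 4 of 5 genes were lower in the knockout with either treatment and none was higher. The group median was -0.36 with C. albicans and -0.19 with PBS. Of all tested genes 27.5% were lower with C. albicans and 26.1% with PBS, with medians of -0.05 and -0.08. The 4 called genes were the long ones, above the median length of 3899 bases. Among all tested genes above that length 42.1% and 41.7% were lower, with medians of -0.14 and -0.16. The response passed for 0 genes in the knockout and raised 3 in wild type, where 16.1% of all tested genes rose. With a trend in gene length removed, 4 of the 5 were called lower in the knockout with C. albicans and 1 with PBS. The shares over all tested genes were then 18.4% and 8.83%. Median-ratio factors left 1 of the 5 lower with PBS and made 1 higher, against 14.1% and 14.2% of all tested genes. The summed level was 961 ± 20.6 TPM in knockout C. albicans and 1199 ± 28.2 in wild-type C. albicans, and 983 ± 25.6 in knockout PBS and 1090 ± 21.2 in wild-type PBS (SD, n = 3 each).

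Nckap1l, which encodes the blood-cell subunit Hem1, was the most abundant of these and had 379, 399.9 and 382 TPM in knockout C. albicans, 506, 490.1 and 486 in wild-type C. albicans, 419, 399.7 and 416 in knockout PBS and 465, 470.5 and 453 in wild-type PBS. The genotypes did not overlap, and the 3 wild-type C. albicans libraries were the highest of all. The knockout effect was -0.35 (SE 0.03, adjusted p = 3.34e-06) with C. albicans and -0.17 (SE 0.03, adjusted p = 0.00143) with PBS, and the response was -0.09 (adjusted p = 0.108) in the knockout and 0.09 (adjusted p = 0.027) in wild type. Cyfip1 (chromosome 7, 55842022 to 55932633), the gene of the subunit that binds Rac, had 107, 109 and 112 TPM in knockout C. albicans, 146, 182 and 186 in wild-type C. albicans, 101, 101 and 104 in knockout PBS and 127, 126 and 123 in wild-type PBS. Its 3 wild-type C. albicans libraries were above all others, with replicate 1 the lowest of them. Cyfip1 fell in the knockout by 0.63 (SE 0.07, adjusted p = 1.83e-05) with C. albicans and by 0.29 (SE 0.07, adjusted p = 0.00651) with PBS.

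Wasf2, which encodes WAVE2, had 85.0, 82.6 and 81.5 TPM in knockout C. albicans, 112, 103 and 106 in wild-type C. albicans, 84.9, 79.3 and 87.9 in knockout PBS and 105, 107 and 112 in wild-type PBS. Here the treatments overlapped in each genotype, and the genotypes did not. Knockout over wild type stood at -0.36 (SE 0.05, adjusted p = 5.99e-05) with C. albicans and -0.36 (SE 0.05, adjusted p = 1.11e-04) with PBS, and neither response passed. Abi1, the gene of an adaptor subunit, fell in the knockout by 0.50 with C. albicans and by 0.19 with PBS. Brk1, the gene of the smallest subunit and the only short one, did not pass in any comparison, at 0.04 with C. albicans and 0.05 with PBS, but with median-ratio factors it was higher in the knockout with PBS, at 0.15 (adjusted p = 0.0292). Cyfip1 overlaps Nipa2, and Abi1 overlaps Pdss1.

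WASP and its partners showed less. Was, the blood-cell WASP gene, had 111, 108 and 112 TPM in knockout C. albicans, 107, 112 and 114 in wild-type C. albicans, 105, 107 and 104 in knockout PBS and 129, 119 and 125 in wild-type PBS. With C. albicans the genotypes overlapped, and with PBS all knockout libraries were below wild type. The knockout effect of Was did not pass with C. albicans (adjusted p = 0.932) and was -0.24 (SE 0.04, adjusted p = 5.40e-04) with PBS, and Was fell in the wild-type response by 0.17, which became -0.09 (adjusted p = 0.129) with median-ratio factors. Wipf1, the gene of the WASP-stabilising protein WIP, had 133, 140.1 and 133 TPM in knockout C. albicans, 148, 125 and 125 in wild-type C. albicans, 142, 140.0 and 141 in knockout PBS and 160.0, 149.8 and 144 in wild-type PBS. The 3 knockout C. albicans libraries lay inside the range of wild-type C. albicans, whose replicate 1 was the highest of that group, and with PBS the 3 knockout libraries were just below wild type. It fell in the wild-type response by 0.19 (SE 0.06, adjusted p = 0.0214), which became -0.11 (adjusted p = 0.115) with median-ratio factors. Its knockout effect did not pass with either treatment, but with a trend in gene length removed it was 0.16 (adjusted p = 0.0244) with C. albicans. Wasl fell in the knockout with C. albicans by 0.22 (SE 0.07, adjusted p = 0.0292), a call kept in 7 of 12 fits that each left out 1 library. It was lost with median-ratio factors, at -0.17 (adjusted p = 0.0862), and with a trend in gene length removed, at -0.09 (adjusted p = 0.363).

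Among monomer binding and turnover genes, 3 of 7 rose in the knockout response and 4 rose and 2 fell in the wild-type response. The shares over all tested genes were 3.94%, 16.1% and 28.3%. Between genotypes 1 was higher in the knockout and 1 lower with C. albicans, and 2 were higher and 2 lower with PBS. Of all tested genes 12.4% and 27.5% were with C. albicans, and 6.14% and 26.1% with PBS. Tmsb4x (chromosome X, 167207093 to 167213479) had 12726, 13020 and 12896 TPM in knockout C. albicans, 12690, 12992 and 12961 in wild-type C. albicans, 11505, 11649 and 11239 in knockout PBS and 10460, 10123 and 9652 in wild-type PBS. The genotypes overlapped with C. albicans, at means of 12881 ± 148 TPM in the knockout and 12881 ± 166 in wild type (SD, n = 3 each), and with PBS the knockout was above wild type in all libraries. Tmsb4x rose in both responses, by 0.17 (SE 0.03, adjusted p = 0.00193) in the knockout and 0.35 (SE 0.03, adjusted p = 5.55e-07) in wild type, and its knockout effect with PBS was 0.19 (SE 0.03, adjusted p = 2.86e-04). That last call ended with a trend in gene length removed.

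Cotl1, the gene of the filament-binding protein coactosin-like 1, had 1039, 1044 and 1017 TPM in knockout C. albicans, 880.1, 763 and 769 in wild-type C. albicans, 988, 985 and 1022 in knockout PBS and 942, 964 and 1046 in wild-type PBS. The 3 wild-type C. albicans libraries were the lowest of the 12, and the other groups overlapped. It was higher in the knockout with C. albicans, at 0.36 (SE 0.05, adjusted p = 1.21e-04), and not with PBS, at 0.02 (adjusted p = 0.787). Cotl1 fell in the wild-type response by 0.29 (SE 0.05, adjusted p = 5.77e-04) and did not pass in the knockout, at 0.05 (adjusted p = 0.606). Coro1a, which encodes coronin 1A of blood cells, had 325, 326 and 334 TPM in knockout C. albicans, 349, 367 and 379 in wild-type C. albicans, 262, 259 and 254 in knockout PBS and 273, 277 and 287 in wild-type PBS. All treated libraries were above all PBS libraries. Its response was 0.34 (SE 0.03, adjusted p = 2.52e-05) in the knockout and 0.39 (SE 0.03, adjusted p = 2.20e-06) in wild type.

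Cofilin and profilin genes, which sever filaments and load monomers, were among the most abundant of the list. Cfl1 was at 2131 ± 23.5 TPM in knockout C. albicans, 2100 ± 79.3 in wild-type C. albicans, 2009 ± 21.6 in knockout PBS and 1877 ± 22.1 in wild-type PBS (SD, n = 3 each). It was higher in the knockout with PBS by 0.10, a call that ended with a trend in gene length removed, and rose in wild type by 0.16. Pfn1 rose by 0.16 in the knockout response and 0.24 in the wild-type response. Coro1b passed in no comparison, and Coro1c, a coronin found in many cell types, was lower in the knockout with PBS by 0.12. Tmsb4x, Cfl1 and Pfn1 have processed pseudogenes, which makes their reads less certain, and Pfn1 overlaps Eno3.

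Capping and severing genes were split between genotypes. With C. albicans 2 of 5 were higher in the knockout and 2 lower, with a median of -0.09. Of all tested genes 12.4% were higher and 27.5% lower, with a median of -0.05. The alpha subunits of capping protein, Capza1 and Capza2, fell in the knockout with C. albicans by 0.24 (SE 0.04, adjusted p = 3.28e-04) and 0.32 (SE 0.06, adjusted p = 0.00156), and the beta subunit Capzb was higher. Capzb had 555, 520.0 and 546 TPM in knockout C. albicans, 507, 481 and 478 in wild-type C. albicans, 497, 508 and 514 in knockout PBS and 519.9, 535 and 532 in wild-type PBS. With C. albicans the knockout libraries were all above wild type, and with PBS all below. Between genotypes the value was 0.15 (SE 0.03, adjusted p = 0.00347) with C. albicans and -0.06 (adjusted p = 0.162) with PBS, and Capzb fell in the wild-type response by 0.11 (SE 0.03, adjusted p = 0.0125). With median-ratio factors that fall was -0.03 (adjusted p = 0.401).

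Capg, which encodes a capping protein abundant in macrophages, had 1538, 1543 and 1546 TPM in knockout C. albicans, 1402, 1436 and 1435 in wild-type C. albicans, 1607, 1645 and 1634 in knockout PBS and 1388, 1438 and 1514 in wild-type PBS. The knockout libraries were above wild type with each treatment. The knockout effect was 0.11 (SE 0.03, adjusted p = 0.00711) with C. albicans and 0.17 (SE 0.03, adjusted p = 7.47e-04) with PBS, and neither response passed. Gsn, the gene of the severing protein gelsolin, rose in wild type by 0.19 (SE 0.04, adjusted p = 0.00118) and was called in no other comparison. Over the group the summed level was 2802 ± 21.3 TPM in knockout C. albicans and 2773 ± 45.5 in wild-type C. albicans, and 2804 ± 24.0 in knockout PBS and 2686 ± 37.0 in wild-type PBS (SD, n = 3 each).

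Among elongation genes Vasp had the largest fold changes of the 51 in 3 comparisons. Vasp (chromosome 7, 19256929 to 19271854), which encodes an Ena/VASP protein that extends filaments at adhesions and lamellipodia, had 148, 145 and 143 TPM in knockout C. albicans, 196, 299.8 and 308 in wild-type C. albicans, 99.9, 101 and 99.6 in knockout PBS and 123, 127 and 130.5 in wild-type PBS. No groups overlapped, and wild-type C. albicans replicate 1 was well below its replicates yet above all other groups. The response was 0.53 (SE 0.12, adjusted p = 0.0193) in the knockout and 1.04 (SE 0.12, adjusted p = 2.39e-05) in wild type, and the knockout effect was -0.85 (SE 0.12, adjusted p = 1.40e-04) with C. albicans and -0.34 (SE 0.12, adjusted p = 0.0479) with PBS. The call with PBS was lost with median-ratio factors, at -0.24 (adjusted p = 0.193), and the knockout response was called in 6 of 12 fits that each left out 1 library. Without wild-type C. albicans replicate 1 the knockout effect with C. albicans was -1.06 (adjusted p = 4.40e-10).

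Evl, the gene of another Ena/VASP protein, had 70.2, 72.5 and 73.3 TPM in knockout C. albicans, 70.0, 73.9 and 73.6 in wild-type C. albicans, 67.0, 65.5 and 67.1 in knockout PBS and 79.1, 86.0 and 84.5 in wild-type PBS. Its wild-type PBS libraries were the highest of all, and with C. albicans the genotypes overlapped. Evl fell in the knockout with PBS by 0.32 (SE 0.04, adjusted p = 1.10e-04) and in the wild-type response by 0.20 (SE 0.04, adjusted p = 0.00186). The formin gene Diaph1 fell in the knockout with C. albicans by 0.23 (SE 0.04, adjusted p = 6.91e-04), which became -0.05 (adjusted p = 0.305) with a trend in gene length removed, and the leukocyte formin gene Fmnl1 rose in wild type by 0.20 (SE 0.05, adjusted p = 0.00608). Evl overlaps Degs2, among others.

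**Figure D2:**
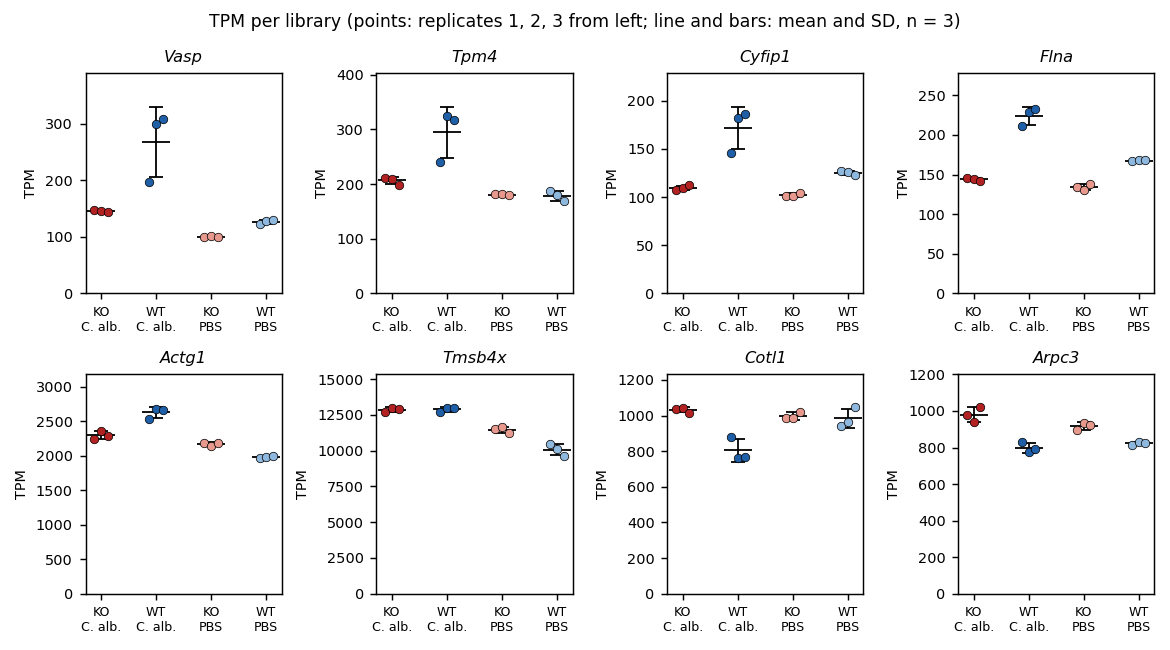
TPM of 8 named genes in each library, in 4 groups with the knockout left of wild type for each treatment; points are replicates 1 to 3 from the left, lines are means and bars are SD (n = 3). For Vasp, Tpm4 and Cyfip1 the wild-type C. albicans libraries are above the other groups and their replicate 1 is the lowest of the 3.

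All 5 crosslinking and scaffolding genes were called lower in the knockout under each treatment, with medians of -0.47 with C. albicans and -0.26 with PBS. All 5 were longer than the median tested gene, of 3899 bases. Among all tested genes above that length, 42.1% were lower with C. albicans and 41.7% with PBS, with medians of -0.14 and -0.16. Flna (chromosome X, 74223461 to 74249854), which encodes filamin A, a crosslinker that also binds integrins, had 145, 144 and 142 TPM in knockout C. albicans, 211, 228 and 233 in wild-type C. albicans, 135, 129.9 and 138 in knockout PBS and 167, 168 and 168 in wild-type PBS. No groups overlapped, and the spread within groups was small. Knockout over wild type stood at -0.63 (SE 0.04, adjusted p = 2.17e-07) with C. albicans and -0.32 (SE 0.04, adjusted p = 7.74e-05) with PBS, and the response was 0.10 (SE 0.04, adjusted p = 0.144) in the knockout and 0.41 (SE 0.04, adjusted p = 3.47e-06) in wild type. Lcp1, the gene of the leukocyte bundling protein L-plastin, had 563, 579 and 564 TPM in knockout C. albicans, 695, 839 and 847 in wild-type C. albicans, 512, 493 and 506 in knockout PBS and 607, 593 and 575 in wild-type PBS. Its knockout libraries were below wild type with each treatment. Lcp1 fell in the knockout by 0.47 (SE 0.06, adjusted p = 4.85e-05) with C. albicans and by 0.23 (SE 0.06, adjusted p = 0.00972) with PBS, and it rose in wild type by 0.42 (SE 0.06, adjusted p = 1.13e-04).

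Iqgap1, which encodes a scaffold that binds Cdc42 and Rac, was at 305 ± 4.78 TPM in knockout C. albicans, 439 ± 15.1 in wild-type C. albicans, 297 ± 11.4 in knockout PBS and 358 ± 7.05 in wild-type PBS (SD, n = 3 each). Its knockout effect was -0.52 (SE 0.04, adjusted p = 3.83e-07) with C. albicans and -0.27 (SE 0.04, adjusted p = 1.39e-04) with PBS. The alpha-actinin genes Actn1 and Actn4 fell by 0.14 and 0.18 with C. albicans and by 0.26 and 0.17 with PBS. The group's summed level was 1297 ± 6.43 TPM in knockout C. albicans and 1770 ± 78.2 in wild-type C. albicans, and 1226 ± 29.9 in knockout PBS and 1452 ± 10.3 in wild-type PBS (SD, n = 3 each). The response raised 3 of the 5 and lowered Actn4 in wild type, by 0.10, and passed for 0 in the knockout. In wild type 16.1% of all tested genes rose and 28.3% fell. With a trend in gene length removed, 3 of the 5 were called lower in the knockout with C. albicans and 1 with PBS. The shares over all tested genes were then 18.4% and 8.83%.

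Of the focal adhesion genes Tln1 and Vcl were lower in the knockout with each treatment, and Zyx, the gene of zyxin, passed in no comparison. All 3 are long genes, and 42.1% of all long tested genes were lower with C. albicans and 41.7% with PBS. Tln1, which encodes the integrin activator talin-1 and was the most abundant of the 3, had 126, 126 and 125 TPM in knockout C. albicans, 170.1, 168 and 173 in wild-type C. albicans, 137, 129 and 140.5 in knockout PBS and 156, 158 and 169 in wild-type PBS. The genotypes did not overlap, and the knockout C. albicans libraries were the lowest. The knockout effect was -0.44 (SE 0.04, adjusted p = 3.86e-06) with C. albicans and -0.25 (SE 0.04, adjusted p = 4.99e-04) with PBS, where it turned to 0.02 (adjusted p = 0.788) with a trend in gene length removed. Vcl, the gene of vinculin, was at 24.5, 26.2 and 26.0 TPM in knockout C. albicans, 38.6, 38.5 and 39.4 in wild-type C. albicans, 23.1, 23.5 and 23.0 in knockout PBS and 29.8, 29.8 and 27.7 in wild-type PBS. All 4 groups were apart. Vcl fell in the knockout by 0.59 (SE 0.05, adjusted p = 1.15e-06) with C. albicans and by 0.31 (SE 0.05, adjusted p = 2.58e-04) with PBS, and it rose in wild type by 0.40 (SE 0.05, adjusted p = 1.62e-05). Vcl overlaps Ap3m1.

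Among myosins and tropomyosins, which contract or coat filaments, the 4 genes did not move together. Tpm4 (chromosome 8, 72135288 to 72153142) had 212, 209 and 198 TPM in knockout C. albicans, 241, 325 and 318 in wild-type C. albicans, 181, 181 and 180.2 in knockout PBS and 186, 181 and 168 in wild-type PBS. The 3 wild-type C. albicans libraries were above all others, and with PBS the genotypes overlapped. Tpm4 was lower in the knockout with C. albicans, at -0.50 (SE 0.09, adjusted p = 6.34e-04), and not with PBS, at 0.02 (adjusted p = 0.889), and its response was 0.19 (adjusted p = 0.211) in the knockout and 0.71 (SE 0.09, adjusted p = 3.78e-05) in wild type. Tpm3, the more abundant tropomyosin gene, had 443, 446 and 450.4 TPM in knockout C. albicans, 447, 482 and 477 in wild-type C. albicans, 438, 443 and 446 in knockout PBS and 456, 460.3 and 452 in wild-type PBS. Its 4 groups differed little, and it passed in no comparison.

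Myh9, the heavy chain gene of non-muscle myosin IIA, had 188, 189 and 194 TPM in knockout C. albicans, 242, 233 and 236 in wild-type C. albicans, 192, 179.6 and 196 in knockout PBS and 236, 241 and 255 in wild-type PBS. The genotypes did not overlap and the treatments did. Between genotypes the value was -0.32 (SE 0.04, adjusted p = 4.53e-05) with C. albicans and -0.37 (SE 0.04, adjusted p = 3.09e-05) with PBS. Neither call of Myh9 was kept with a trend in gene length removed. Myo1f, which encodes a class I myosin of leukocytes, had 343, 346 and 342 TPM in knockout C. albicans, 388, 350.0 and 360.1 in wild-type C. albicans, 367, 357 and 369 in knockout PBS and 425, 422 and 435 in wild-type PBS. Its wild-type PBS libraries were the highest. Myo1f fell in the knockout with PBS by 0.23 (SE 0.04, adjusted p = 3.91e-04) and in the wild-type response by 0.22 (SE 0.04, adjusted p = 2.65e-04), and did not pass with C. albicans between genotypes, at -0.09 (adjusted p = 0.0615).

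The membrane linkers, which anchor filaments to the plasma membrane, were lower in the knockout. With C. albicans 3 of 3 were lower, with a median of -0.43, and with PBS 2 of 3. With a trend in gene length removed these counts were 2 and 1, where 18.4% and 8.83% of all tested genes were lower. All 3 linkers are long genes. Before the removal 42.1% of all long tested genes were lower with C. albicans and 41.7% with PBS. Msn, the gene of moesin, the main such protein in leukocytes, had 402, 397 and 399 TPM in knockout C. albicans, 528, 572 and 573 in wild-type C. albicans, 398, 386 and 392 in knockout PBS and 501, 489 and 478 in wild-type PBS. The genotypes did not overlap, and the knockout libraries of both treatments lay together. The knockout effect was -0.48 (SE 0.03, adjusted p = 5.06e-07) with C. albicans and -0.32 (SE 0.03, adjusted p = 2.76e-05) with PBS, and the response was 0.03 (adjusted p = 0.692) in the knockout and 0.19 (SE 0.03, adjusted p = 6.97e-04) in wild type. Ezr, the gene of ezrin, was 0.43 (SE 0.08, adjusted p = 6.59e-04) lower in the knockout with C. albicans, and Rdx, the gene of radixin, 0.24 (SE 0.05, adjusted p = 0.00241) lower.

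Gene length ran along with the knockout effect across the whole table, and the role groups differ in length. Exon lengths recovered from the values had a Spearman correlation with the knockout effect of -0.40 with C. albicans and -0.46 with PBS over 11283 genes, and of -0.67 and -0.71 over the 51. These are descriptions across genes of the same libraries. The 5 crosslinking, 3 focal adhesion and 3 membrane linker genes were all longer than the median of 3899 bases, as were 4 of 5 WAVE genes, while 6 of 8 Arp2/3 genes, 6 of 7 turnover genes and both actin genes were shorter. The lengths ran from 870 bases for Tmsb4x to 11114 for Tln1.

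Split at that median, 23 of the 51 genes were short and 28 long. With C. albicans 4 short genes were higher in the knockout (17.4%) and 6 lower (26.1%), where 19.5% and 12.9% of all short tested genes were. Of the long genes 0 were higher and 20 lower (71.4%), where 5.34% and 42.1% of all long tested genes were. With PBS 6 short genes were higher (26.1%) and 5 lower (21.7%), where 10.8% and 10.6% of all short tested genes were. Of the long ones 0 were higher and 18 lower (64.3%), where 1.49% and 41.7% of all long tested genes were. The median knockout effect with C. albicans was -0.24 for the long genes of the list and -0.14 for all long tested genes. For the short genes of the list it was -0.005 and for all short tested genes 0.04. With PBS the medians lay closer, at -0.18 for the long genes of the list and -0.16 for all long tested genes. For the short ones they were 0.02 and 0.002. The response had a Spearman correlation with length of -0.04 in the knockout and 0.02 in wild type over all tested genes.

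**Figure D3:**
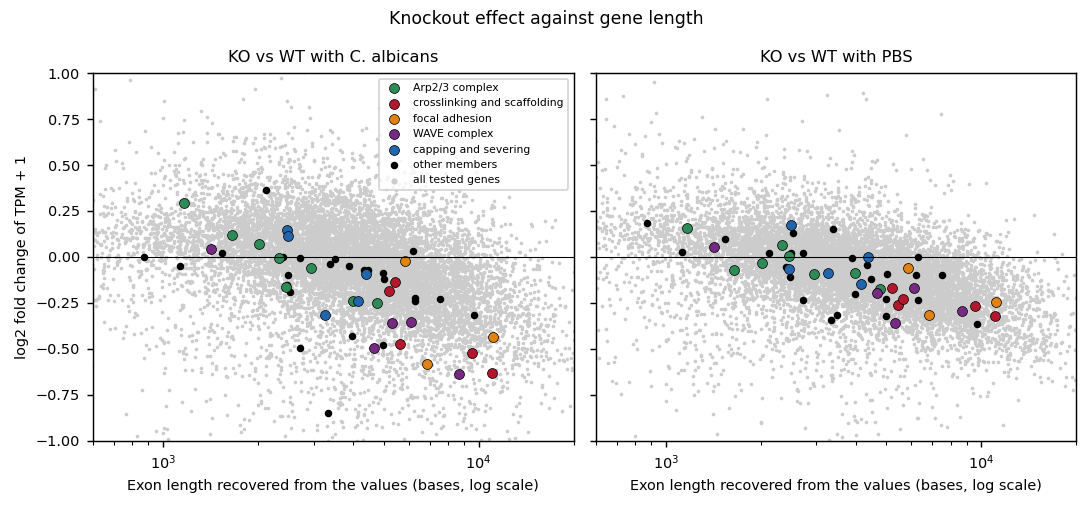
Log2 knockout effect with C. albicans (left) and with PBS (right) against exon length in bases on a log scale; grey points are tested genes that lie inside the axes, which end at a log2 value of 1 either way and large points the 51 genes, coloured by role for 5 groups. The cloud slopes down to the right in both panels, and the crosslinking and focal adhesion genes lie at its long end. No long member was called higher, where 5.34% of all long tested genes were with C. albicans and 1.49% with PBS.

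When a smooth trend with length was removed from each library before the fit, the knockout effect with PBS kept 3 genes higher and 7 lower, against 7.14% and 8.83% of all tested genes. These were Rhoa, Capg and Actg1 higher, and Evl, Wasf2, Was, Msn, Vcl, Actn1 and Myo1f lower. With C. albicans 4 were higher and 21 lower (41.2%), against 13.8% and 18.4% of all tested genes. The response then had 13 higher and 0 lower in the knockout, against 5.35% and 1.67%, and 32 higher and 2 lower in wild type, against 21.9% and 19.1%. The removal takes away any part of the genotype difference that runs with length, whatever its source, which was not tested.

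By role, with the length trend removed, the knockout effect with C. albicans called 4 of 5 WAVE genes lower (median -0.27), 3 of 5 crosslinking genes (-0.29), 2 of 3 membrane linkers (-0.40) and 2 of 3 focal adhesion genes (-0.16). It called 3 of 8 Arp2/3 genes lower and 1 higher (median -0.07), and 2 of 5 capping genes lower and 1 higher (-0.04). Over all tested genes the median was -0.01, with 13.8% called higher and 18.4% lower. Flna was at -0.36 (adjusted p = 1.99e-04), Cyfip1 at -0.42 (adjusted p = 0.00234), Iqgap1 at -0.29 (adjusted p = 4.40e-06) and Lcp1 at -0.37 (adjusted p = 0.00165). The calls that ended were those of Myh9, at -0.08 (adjusted p = 0.154), Diaph1, Wasl, Actn1, Actn4 and Rdx, all lower before, and of Capg, higher before. In the wild-type response the falls of Arpc1b, Arpc5l, Was, Wipf1, Coro1c, Capzb, Evl and Actn4 ended too. With PBS the same groups were nearer 0, with 1 of 5 WAVE genes, 1 of 5 crosslinking genes and 1 of 3 membrane linkers lower, and Flna at -0.05 (adjusted p = 0.544). The short genes Vasp and Tpm4 kept their falls, with Vasp at -0.85 (adjusted p = 4.81e-04) and Tpm4 at -0.53 (adjusted p = 0.00124) with C. albicans.

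**Figure D4:**
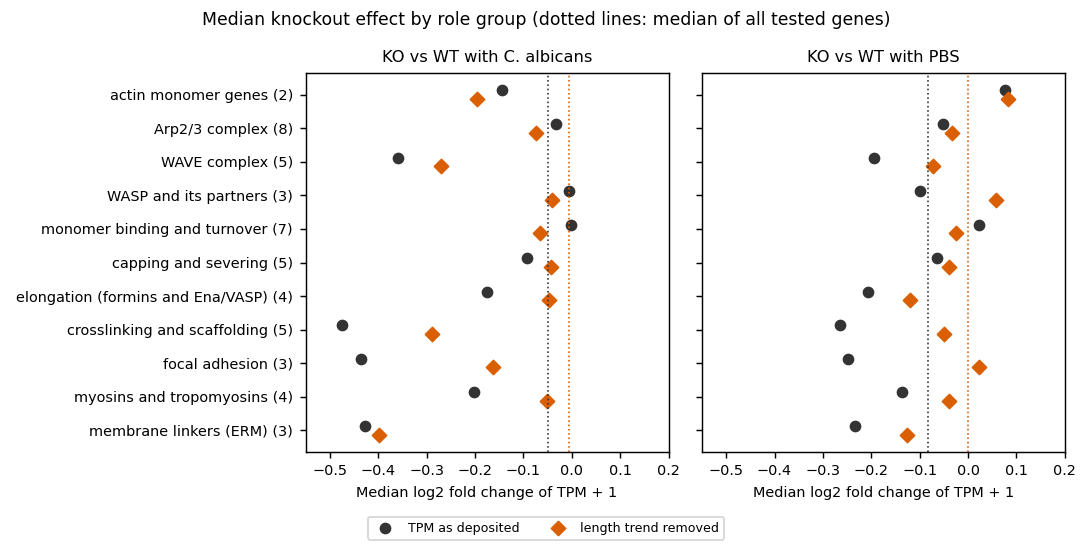
Median log2 knockout effect of each role group described (number of genes in brackets) with C. albicans on the left and PBS on the right, with TPM as deposited (circles) and with the length trend removed (diamonds); dotted lines are medians of all tested genes. With PBS the crosslinking median goes to -0.05 when the trend is removed, and with C. albicans it is -0.29.

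Whether the response itself differed between genotypes was tested as an interaction, the knockout response minus that of wild type. Of the 51 genes 4 were higher and 14 lower (27.5%), against 7.52% and 6.33% of all tested genes, and the median was -0.08 beside 0.02 over all tested genes. With the length trend removed 3 were higher and 12 lower, against 6.53% and 8.54%. Without wild-type C. albicans replicate 1 there were 7 higher and 21 lower, against 13.0% and 9.39%. There were 6 lower without knockout PBS replicate 1, 7 without wild-type C. albicans replicate 2 or 3, 8 without any one knockout C. albicans library and 9 without knockout PBS replicate 3. These last counts have no share over all tested genes beside them. Of the 27 genes that rose in wild type, 26 had a positive value in the knockout and 26 a smaller one, which by itself is no test.

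Lower in the interaction were Tpm4 at -0.52 (SE 0.12, adjusted p = 0.0154), Cyfip1 at -0.34 (SE 0.10, adjusted p = 0.0371), Actg1 at -0.32 (SE 0.04, adjusted p = 1.59e-04) and Flna at -0.31 (SE 0.05, adjusted p = 0.00245). The others were Abi1, Vcl, Iqgap1, Tln1, Rhoa, Tmsb4x, Nckap1l, Arpc5, Msn and Actr3. By role these include 3 of 5 WAVE genes, 2 of 8 Arp2/3 genes, 2 of 5 crosslinking genes and 0 of 5 capping genes. Higher in the interaction were Cotl1 at 0.34 (SE 0.07, adjusted p = 0.00795), Evl at 0.31 (SE 0.06, adjusted p = 0.00379), Was at 0.23 (SE 0.05, adjusted p = 0.0135) and Capzb at 0.21 (SE 0.05, adjusted p = 0.0105). Each of these 4 fell in wild type and had a positive value in the knockout that did not pass. Vasp, with the largest responses, did not pass, at -0.51 (SE 0.17, adjusted p = 0.069), and without wild-type C. albicans replicate 1 it stood at -0.72 (adjusted p = 2.86e-07). Of the calls, that of Cyfip1 was kept in 1 of 12 fits that each left out 1 library, that of Msn in 2, that of Tln1 in 3, those of Abi1 and Actr3 in 4, that of Rhoa in 5 and that of Arpc5 in 8. Tpm4, Actg1, Flna, Vcl, Iqgap1 and Tmsb4x were called in all 12, as were the 4 that were higher. Nckap1l lost its call without knockout PBS replicate 1. The call of Was ended with median-ratio factors, at 0.19 (adjusted p = 0.0507), and with the length trend removed, at 0.18 (adjusted p = 0.0637), where those of Cyfip1 and Tln1 ended as well. With upper-quartile factors those of Cyfip1, Msn and Actr3 ended.

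**Figure D5:**
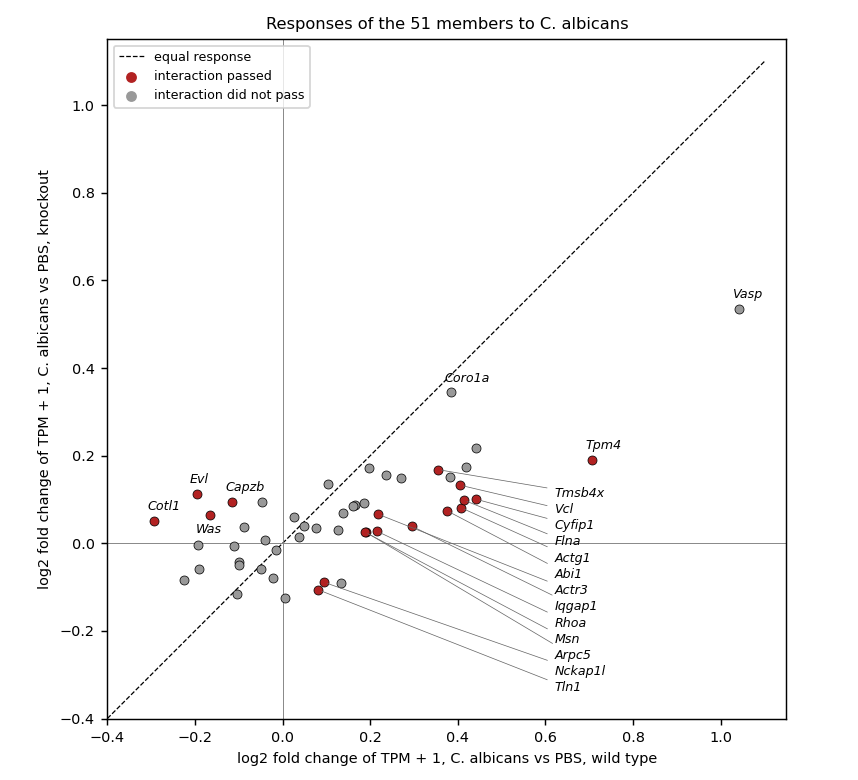
Log2 fold change of C. albicans over PBS in the knockout (vertical axis) against wild type (horizontal axis) for the 51 genes; red points passed the interaction test and the dashed line marks equal responses. Vasp and Tpm4 lie farthest to the right and below the line, while Coro1a lies close to it.

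The authors' deposited table holds a single test, of C. albicans over PBS in wild type, as the values show. In the authors' deposited table, 31 of the 51 genes were higher (60.8%) and 2 lower (3.92%) at an adjusted p under 0.05, where 18.6% of 13587 genes were higher and 14.1% lower. The 2 lower ones were Cotl1 at -0.21 and Myo1f at -0.14 in the authors' deposited table. There Vasp stands at 1.16, Tpm4 at 0.81 and Ezr at 0.54 on the log2 scale. Tln1, Cdc42, Tpm3 and Rdx were higher in the authors' deposited table, at 0.16, 0.16, 0.12 and 0.13, and did not pass in the fit to TPM.

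A wider list of 94 actin and adhesion genes outside the 51, of which 81 were tested, was read in the same fit. With C. albicans 7 of the 81 were higher in the knockout (8.64%) and 35 lower (43.2%), against 12.4% and 27.5% of all tested genes. With PBS 4 were higher (4.94%) and 31 lower (38.3%), against 6.14% and 26.1%. That split with PBS was 16 higher and 18 lower with median-ratio factors (14.2% and 14.1% of all tested genes). It was 11 and 9 with the length trend removed (7.14% and 8.83%). Without wild-type C. albicans replicate 1 it was 10 and 34 (7.67% and 29.8%). With C. albicans it was 13 and 33 with median-ratio factors (19.3% and 21.8%). With the length trend removed it was 10 and 23 (13.8% and 18.4%). The response raised 6 and lowered 1 in the knockout (7.41% and 1.23%, against 3.94% and 3.14%), and raised 28 and lowered 21 in wild type (34.6% and 25.9%, against 16.1% and 28.3%). By median-ratio factors these were 9 and 0 in the knockout (5.42% and 1.52% of all tested genes) and 37 and 16 in wild type (22.8% and 18.3%). In the interaction 7 were higher and 11 lower (8.64% and 13.6%, against 7.52% and 6.33%). Leaving out wild-type C. albicans replicate 1 gave the knockout response 12 higher and 4 lower (5.88% and 7.30% of all tested genes). It gave the interaction 15 and 19 (13.0% and 9.39%). Marcksl1, which encodes a membrane-bound actin regulator of the MARCKS family, had the largest rise of the tested genes of this list in each response. It was at 198 ± 3.44 TPM in knockout C. albicans, 458 ± 132 in wild-type C. albicans, 69.3 ± 2.78 in knockout PBS and 97.5 ± 3.21 in wild-type PBS (SD, n = 3 each). Its response was 1.5 in the knockout and 2.18 (SE 0.16, adjusted p = 2.76e-07) in wild type.

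Genes of this wider list with the largest falls in the knockout with C. albicans were Fscn1, the gene of the bundling protein fascin, at -1.53 (SE 0.33, adjusted p = 0.00254), Marcksl1 at -1.16 and the formin gene Fmnl2 at -0.93. Fscn1 was low, at 0.507 ± 0.243 TPM in knockout C. albicans and 3.82 ± 2.36 in wild-type C. albicans (SD, n = 3 each). The largest rises there were Cttn, the cortactin gene, at 0.38, Abi3 at 0.32 and the myosin light chain gene Myl12b at 0.29. With PBS Ssh2, Iqgap2 and Gmfg fell in the knockout by 0.62, 0.60 and 0.58, and Tmsb10, Dstn and Tagln2 rose by 0.21, 0.20 and 0.15.

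In the response of the knockout Gmfg rose by 0.47 and Marcks by 0.32, and Myo1g fell by 0.17. In that of wild type Fscn1 rose by 1.56 and Tes, a LIM-domain adhesion gene, by 0.95, while Cttn, Iqgap2 and Abi3 fell by 0.64, 0.53 and 0.42. In the interaction Aif1, Iqgap2 and Gmfg were higher, at 0.58 (SE 0.07, adjusted p = 1.55e-04), 0.47 and 0.43. Fmnl2, Tes and Pls3, the gene of T-plastin, were lower, at -0.84, -0.79 and -0.78. Tes was at 36.9 ± 1.90 TPM in knockout C. albicans, 58.1 ± 11.4 in wild-type C. albicans, 32.9 ± 0.614 in knockout PBS and 29.1 ± 0.354 in wild-type PBS (SD, n = 3 each).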

How the data were processed

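The genotype and treatment labels set the groups. CASAVA 1.8, cutadapt 2.6, STAR 2.7.5a, DESeq2 1.34.0 and the mm10 build are named in the submitters' processing notes. Not given in the sources used here are the read counter, its strand setting, the annotation release and how shared reads were handled. The values are TPM made by the authors, each library summing to 1000000. Per the file headers, the authors also deposited DESeq2 columns for 1 comparison: the mean normalised signal, the log2 fold change and its error, the score of the Wald test, and each p-value as found and adjusted. The values match C. albicans over PBS in wild type, with a median absolute difference of 0.000968 over 9555 genes.

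Whole reads were recovered from TPM and the mean signal, since 100% of 171648 nonzero values lay within 0.01 of a whole read. At the median gene length each read stood for 0.0275 to 0.0436 TPM, and the exon lengths recovered with the reads had a Spearman correlation of 0.772 with annotated lengths over 10694 genes. limma 3.58.1 in R 4.3.3 was fitted to log2(TPM + 1) over all 12 libraries, with 1 mean per group and the variance trend on, for the 11283 genes at 1 TPM or more in 3 or more libraries (8 residual degrees of freedom). P-values are two-sided and adjusted by Benjamini-Hochberg per comparison (threshold 0.05). On this scale fold changes understate the change of low genes. The length trend was removed from each library by lowess with a span of 0.3. Scaling, pseudocount, filter, variance trend, libraries in the fit, replicate block and single libraries were varied as alternatives, and voom on recovered reads was added after the data had been seen. The fit was tested on simulated data.

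The 51 genes, the wider list and the role groups were chosen with earlier results of these data known. Genes with values in every library are the 3 highest and 3 lowest fold changes among those called in each comparison, and the most abundant of each role group; the results of 1 role group are not reported here. Of the wider list the 3 largest rises and falls called in each comparison are named. Same-numbered libraries of 2 groups had correlations of their deviations between -0.09 and 0.09, so the numbers do not pair them. Coordinates are those of RefSeq on GRCm38.p6, the assembly that mm10 names.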

Additional observations from a re-analysis of the deposited data

Results flagged for a closer look

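For 18 of the 51 genes the response to C. albicans differed between knockout and wild type by the interaction term of the limma fit (adjusted p under 0.05 over all tested genes). Of these 4 were higher and 14 lower, where 7.52% and 6.33% of all tested genes were. Fits that each left out 1 library gave 6 to 21 lower, and the fit without the variance trend gave 5. Most fits that left out 1 library lost the call of Cyfip1. The knockout response minus the wild-type response was -0.52 on the log2 scale for Tpm4, -0.34 for Cyfip1, -0.32 for Actg1, -0.31 for Flna, -0.30 for Abi1, -0.27 for Vcl and -0.26 for Iqgap1. It was -0.19 for Tln1, Rhoa and Tmsb4x, -0.18 for Nckap1l, -0.17 for Arpc5, -0.16 for Msn and -0.15 for Actr3. It was above 0 for Cotl1 at 0.34, Evl at 0.31, Was at 0.23 and Capzb at 0.21. The knockout PBS libraries, whose titles name DMSO, enter every one of these values, and the part of the vehicle was not tested. The call of Was ended with median-ratio factors and with the length trend removed, those of Cyfip1 and Tln1 with the length trend removed, and those of Cyfip1, Msn and Actr3 with upper-quartile factors. Dixon's test for an outlying value was not run, since every group has 3 libraries.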

How the results depend on the processing

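The counts of called genes moved more with scaling and gene length than single directions did. Median-ratio factors gave 10 higher and 12 lower for the knockout effect with PBS (14.2% and 14.1% of all tested genes). They gave 13 higher for the knockout response (5.42%) and 3 lower for the wild-type response (18.3%). Upper-quartile factors gave 14 lower for the knockout effect with PBS and 8 higher for that with C. albicans (21.9%). With the length trend removed there were 3 higher and 7 lower for the knockout effect with PBS (7.14% and 8.83%). The knockout response then had 13 higher (5.35%) and the wild-type response 2 lower (19.1%). Voom on recovered reads gave 12 higher and 13 lower with PBS (13.4% and 15.5%) and 7 higher with C. albicans (19.5%). It gave 21 higher for the knockout response (6.81%) and 2 lower for that of wild type (18.5%). With only the libraries compared in the fit there were 14 higher and 2 lower for the knockout response and 6 lower for the wild-type response. Without a filter the knockout response had 2 higher and the interaction 8 lower, and without the variance trend 3 and 5. Counts with no share in brackets show only how the calls of these genes moved, and are no comparison with the whole table.

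Leaving out 1 library at a time gave 2 to 16 higher and 0 to 2 lower for the knockout response, 25 to 27 and 7 to 10 for the wild-type response, 4 to 5 and 24 to 30 for the knockout effect with C. albicans, 5 to 6 and 18 to 25 for that with PBS, and 4 to 7 and 6 to 21 for the interaction. The values of 16 and 21 are those without wild-type C. albicans replicate 1, where 5.88% and 9.39% of all tested genes were called. The other counts given here have no such share beside them and show only how calls moved. A replicate block, for numbers that do not pair the libraries, gave 4 higher and 12 lower for the interaction, 6 and 24 for the knockout effect with PBS and the same counts in the other comparisons. Of the called single genes, Arpc4 in the knockout with PBS turned to 0.0053 with median-ratio factors and 0.0031 with voom, and Tln1 to 0.023 with the length trend removed. The cause of these changes was not tested. Over all tested genes median-ratio factors moved the median fold change by less than 0.1 in every comparison. The effects here are of like size. For the 51 genes the median knockout effect with PBS went from -0.10 to 0.0008, and that with C. albicans from -0.14 to -0.08. Depth bounds the lowest gene, Wasl, at 356 to 594 reads per library.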

Other observations

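Summed over the 51 genes, the level was 37956 ± 214 TPM in knockout C. albicans and 39687 ± 1161 in wild-type C. albicans, and 35369 ± 137 in knockout PBS and 34163 ± 335 in wild-type PBS (SD, n = 3 each). Thymosin, actin, cofilin and profilin genes hold most of this sum. The sums of the elongation genes were 319 ± 1.92 TPM in knockout C. albicans and 458 ± 63.1 in wild-type C. albicans, and 272 ± 4.11 in knockout PBS and 323 ± 5.70 in wild-type PBS. Those of the membrane linkers were 537 ± 3.74 TPM in knockout C. albicans and 737 ± 40.8 in wild-type C. albicans, and 516 ± 7.33 in knockout PBS and 634 ± 14.0 in wild-type PBS (SD, n = 3 each). Of the wider list, Actr3b, Avil, Enah, Fermt2, Iqgap3, Myh10, Myl9, Parva, Scin, Tln2, Tpm2, Wasf1 and Wash1 were not tested, being under the filter or not found by symbol.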
